A study of Oryctolagus cuniculus with 9 samples.

Results

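The diaphragm is the muscle that drives each breath, and unlike most limb muscles it works without rest for the whole of life. It is a mixed muscle: slow fibres, which resist fatigue and burn fuel in mitochondria, lie beside fast fibres, and each fibre type uses its own isoforms of myosin, troponin and the calcium-handling proteins. A piece of diaphragm also holds capillaries, fibroblasts, nerve, blood and satellite cells, the stem cells of muscle, and RNA from all of them enters a tissue library. The 3 libraries described here are the CON group of a study of ventilation-induced diaphragm dysfunction, 3 of 9 diaphragm libraries in all, and were chosen by their label alone.

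The CON libraries came from New Zealand white rabbits of 2.0 to 2.5 kg that were anaesthetised with 35 mg/kg sodium pentobarbital and breathed spontaneously. The study's methods also describe tracheostomy, intubation and intravenous dexmedetomidine, without saying whether the CON rabbits were treated differently. These methods state that animals were killed after 48 h by a pentobarbital overdose, and that the MV group was ventilated for 48 h. No separate time under sedation is given for the CON group. Age was not given, and neither was the part of the diaphragm (costal or crural) that was sampled. The other libraries were 3 of ventilated rabbits without positive end-expiratory pressure (PEEP) and 3 ventilated with PEEP, and they enter only as a comparison of spread. Nothing in the labels says that the 3 CON libraries came from separate animals, so the SDs below measure the spread between libraries. No test was made within this single group, since an exact sign-flip test over 3 libraries cannot give a p below 0.25.

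The libraries held 31791693 counts in CON 1, 25524766 in CON 2 and 21646702 in CON 3. Of the 29076 genes in the table, 11599 had no count in any CON library and 11167 had a mean of at least 1 FPKM (fragment counts scaled to transcript length and library size, which makes levels comparable between genes of different length). The distribution was steep. A mean of at least 10 FPKM was reached by 4267 genes, at least 100 by 747 and at least 1000 by 133. The 10 highest genes of each library took 20.3% of the summed FPKM in CON 1, 21.6% in CON 2 and 22.0% in CON 3. The tissue label fitted the marker genes: skeletal actin, troponin and tropomyosin genes led the list, while the cardiac hormone genes NPPA and NPPB, albumin (ALB) and 7 of 8 lung epithelium genes had no count in any of the 3 libraries. A count of 0 still allows up to 3 counts, which is 0.0944 CPM (counts scaled to a common library size) in CON 1, 0.118 in CON 2 and 0.139 in CON 3, for counting error only.

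ACTA1, the actin of the skeletal muscle thin filament, was the most abundant transcript. It stood at 33472 FPKM in CON 1, 36770 in CON 2 and 29785 in CON 3, a mean of 33342 ± 3494 (SD, n = 3) and 4.50% of the summed FPKM. The 25 highest genes and loci together took 31.7%. Of these 25, 10 were in the lists of contractile and calcium-handling genes, 7 were energy genes, 1 was a ribosomal protein gene (RPLP1), 3 were loci without a gene name and 1 was a troponin T row whose name differed between the table (TNNT1) and RefSeq (TNNT3). The remaining 3 were CRYAB, a small heat shock protein that protects desmin and the Z-disc, TPT1, a growth-related protein, and RN18S, the 18S ribosomal RNA.

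Sarcomere genes common to all fibre types differed by more than 2-fold between libraries in 5 of 21 genes, against 40% of all genes with a mean of at least 1 FPKM. The 5 were DES, MYPN, CAPZB, KLHL41 and CSRP3, of which CSRP3, a Z-disc protein, was at 270, 133 and 136 FPKM in CON 1, CON 2 and CON 3. TPM2, beta-tropomyosin, was at 17925, 16534 and 18223 FPKM in CON 1, CON 2 and CON 3, which is 17561 ± 901 (SD, n = 3). TCAP, which caps titin at the Z-disc, was at 9069 ± 1341 FPKM. SLN, sarcolipin, a small inhibitor of the calcium pump, lies on chromosome 1 (108820329 to 108824805, OryCun 2.0) and was at 7552, 6425 and 6524 FPKM. The libraries differed by less than 1.5-fold in each of these 3 genes. Titin (TTN, 116 ± 13.0 FPKM) and nebulin (NEB, 178 ± 32.4 FPKM), the giant rulers of the thick and thin filament, were far lower per length than actin.

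**Figure D1:**
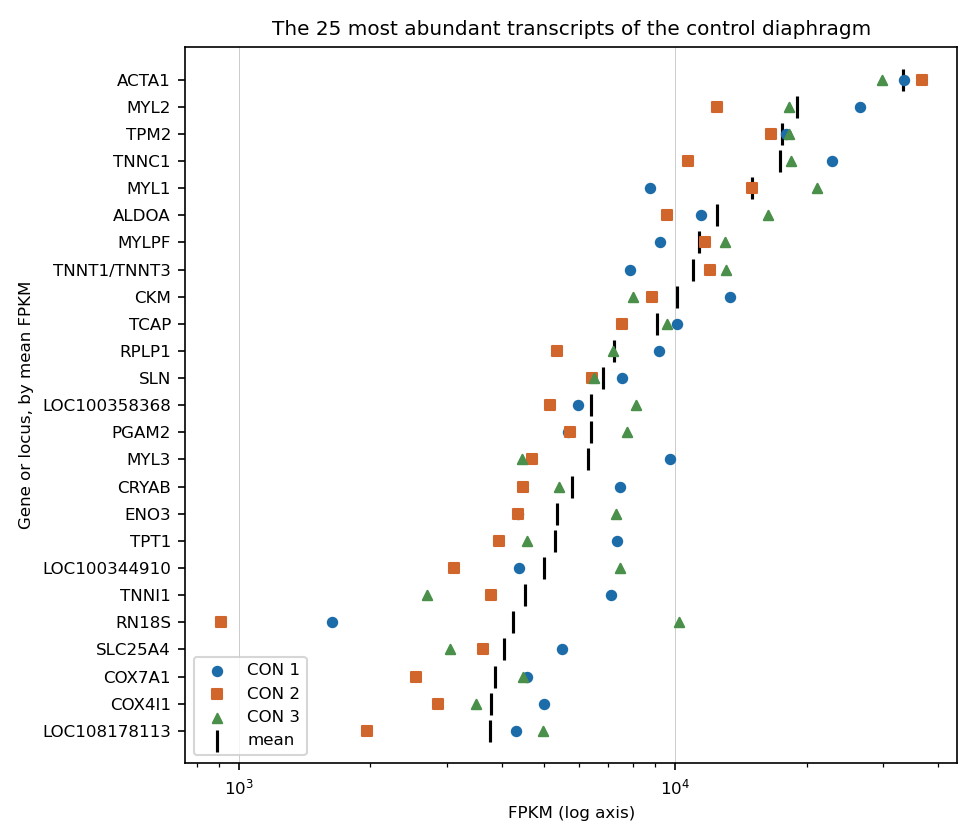
FPKM (log axis) of the 25 genes or loci with the highest mean in the CON group, one symbol per library and a black tick for the mean. ACTA1, TPM2 and SLN lie close together in the 3 libraries, whereas RN18S spans 906 to 10213 FPKM.

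Glycolytic enzymes followed. ALDOA, aldolase, was at 11428, 9576 and 16294 FPKM, PGAM2, the muscle phosphoglycerate mutase, at 6395 ± 1187 and ENO3, the muscle enolase, at 5348 ± 1711 FPKM. CON 3 was the highest library for each of these 3 enzymes. GAPDH could not be read from 1 locus: 8 loci described as this enzyme had at least 1 FPKM, and the 2 highest, on chromosomes 14 and 9, are annotated as pseudogenes in RefSeq. The GAPDH gene itself, on chromosome 8, was at 4567, 4159 and 2265 FPKM, while the 8 loci summed to 21197, 18146 and 22751 FPKM, which is 20698 ± 2343. The single locus was thus lowest in CON 3 and the family sum was highest there. Levels of single members of such near-identical copies are uncertain.

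Fibre type was read from 7 of 10 pairs of a slow and a fast isoform. In the other 3 pairs at least 1 member was not matched, and the slow myosin heavy chain MYH7 and the fast troponins TNNI2 and TNNC2 are not analysed here. The answer depended on the protein. Isoforms listed as slow made up more than 50% of the pair, on average, for myosin binding protein C (MYBPC1 against MYBPC2, 84.6 ± 4.86% of the summed FPKM, n = 3) and for the regulatory light chain (MYL2 against MYLPF, 61.4 ± 11.6%). They were the smaller part for the essential light chain (MYL3 against MYL1, 31.3 ± 18.7%), tropomyosin (TPM3 against TPM1, 26.0 ± 11.2%), the calcium pump SERCA (ATP2A2 against ATP2A1, 18.2 ± 8.25%), calsarcin (MYOZ2 against MYOZ1, 13.9 ± 5.42%) and calsequestrin (CASQ2 against CASQ1, 9.74 ± 2.77%). The share of myosin binding protein C depends on the measure and was 92.8% with counts in place of FPKM. Its MYBPC2 row lies on an unplaced scaffold with a length of 1635 bases, against 3847 for MYBPC1. A pair's share is a ratio of transcripts and not a count of fibres, and in tissue RNA fewer cells of a type cannot be told apart from less RNA per cell.

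The slow share was highest in CON 1 in 7 of 7 pairs, while CON 2 was over CON 3 in 4 pairs and under it in the regulatory light chain, myosin binding protein C and calsequestrin. For MYL2 against MYLPF it was 74.2% in CON 1, 51.6% in CON 2 and 58.3% in CON 3. For MYL3 against MYL1 it was 52.6%, 23.9% and 17.5%, and without CON 1 the mean of this pair was 20.7% in place of 31.3%. CON 1 therefore stood on the slow side of the other 2 libraries for both light chains. The 7 pairs are all measured in the same 3 libraries and are not 7 independent observations of the place of CON 1.

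**Figure D2:**
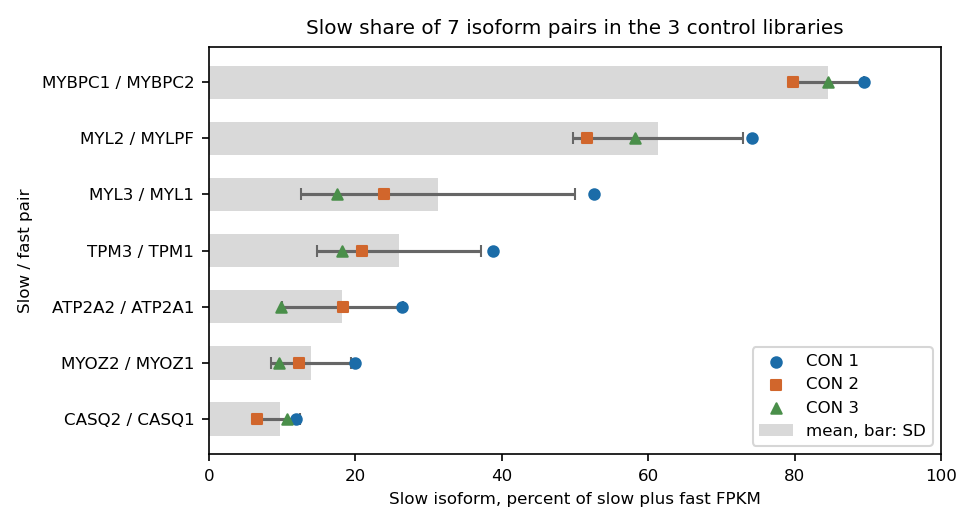
Slow isoform as a percentage of the slow plus fast FPKM for 7 isoform pairs, with 1 symbol per CON library, grey bars for the mean and error bars for the SD over 3 libraries. The CON 1 symbol is the rightmost in each pair, and the mean runs from 84.6% (MYBPC1) to 9.74% (CASQ2).

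Both sides of the pairs moved. MYL2 (chromosome 21, 7119455 to 7124499), the slow and cardiac regulatory light chain, was at 26522, 12470 and 18194 FPKM in CON 1, CON 2 and CON 3. TNNI1, slow troponin I, was at 7139, 3772 and 2691 FPKM, and MYL3, the slow essential light chain, at 9717, 4703 and 4463. CON 1 was the highest for these and, in all, for 8 of the 10 slow isoforms matched, against 21.3% of all genes with a mean of at least 1 FPKM. The exceptions were ATP2A2, highest in CON 2, and MYH7B, an ancient myosin with little protein in mammalian muscle, highest in CON 3. MYL1, the fast essential light chain, had the opposite order, at 8769, 14982 and 21109 FPKM. None of the 12 fast isoforms was highest in CON 1, 5 were highest in CON 2 and 7 in CON 3, against 55.9% and 22.8% of all genes. Parvalbumin (PVALB), the calcium buffer of fast fibres, was at 485, 656 and 845 FPKM, and ACTN3, the fast-fibre alpha-actinin, at 847, 1108 and 1355 FPKM.

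TPM3 has a neighbouring locus on chromosome 13 that is also described as tropomyosin alpha-3, at 1642, 1345 and 413 FPKM. With this locus added to TPM3, the slow tropomyosin share became 61.7%, 42.1% and 27.8%, a mean of 43.8 ± 17% in place of 26.0%. The order of the libraries was the same, and the level of the pair thus depends on how the locus is counted.

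Fast heavy chains of type 2A and 2X dominated the myosin heavy chains that could be matched. These genes lie side by side on chromosome 19, MYH2 at 9025924 to 9051356 and MYH1 at 9056212 to 9080806. MYH2, the 2A heavy chain, was at 1340, 4764 and 2588 FPKM and MYH1, the 2X heavy chain, at 1696, 2111 and 2852 FPKM. They made up 48 ± 11.8% and 41.5 ± 12.4% of the 9 heavy chains matched, a sum that leaves out MYH7. The ratio of MYH2 to MYH1 was 0.790 in CON 1, 2.26 in CON 2 and 0.908 in CON 3, so that their order was reversed in CON 2. MYH4, the 2B heavy chain of the fastest fibres, was low at 25.4, 147 and 149 FPKM. The symbol and the description of the MYH1 and MYH4 rows name different heavy chains, and the genes are near-identical over long stretches, so reads may have been split between them. MYH6, the alpha cardiac heavy chain, was at 227, 199 and 124 FPKM, and as a close copy and neighbour of MYH7 it is uncertain too.

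Heavy chains of embryonic and newborn muscle were present and were uneven between libraries. MYH3, the embryonic heavy chain, was at 2.07 FPKM in CON 1, 73.1 in CON 2 and 44.0 in CON 3. MYH8, the perinatal heavy chain, was at 66.8, 340 and 112 FPKM, and the embryonic and cardiac troponin TNNT2 at 3.54, 16.7 and 20.1 FPKM. CON 1 was the lowest library for these 3, but not for the whole list. ACTC1 was at 33.6, 32.1 and 24.1 FPKM, highest in CON 1, and MYL4 at 5.76, 5.57 and 9.69, lowest in CON 2. Of the 7 developmental and cardiac isoforms with a mean of at least 1 FPKM, 2 were highest in CON 1, 3 in CON 2 and 2 in CON 3. The shares over all genes were 21.3%, 55.9% and 22.8%. MYH13, the heavy chain known from eye and laryngeal muscle, was at 3.83 ± 2.55 FPKM, and MYH15 had no count.

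Excitation-contraction coupling genes varied little. RYR1, the calcium release channel, was at 132, 172 and 190 FPKM, CACNA1S, its voltage sensor, at 116, 138 and 133, and STAC3, which links the complex, at 493 ± 79.2 FPKM. Of the 13 members matched, 2 differed by more than 2-fold between libraries, against 40% of all genes with a mean of at least 1 FPKM. They were JPH2, at 15.8, 32.0 and 7.33 FPKM, and SCN4A, the muscle sodium channel, at 6.39, 15.0 and 15.0 FPKM. PLN, phospholamban, the pump inhibitor of slow and cardiac muscle, was at 13.9 ± 4.22 FPKM, far under sarcolipin. ASPH was the lowest member at 2.89 ± 0.63 FPKM.

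Among the genes matched, the energy lists took a share of the summed FPKM close to that of the contractile and coupling lists. The 188 energy genes matched took 20.9 ± 2.02% of the summed FPKM (n = 3), and the 65 contractile and coupling genes 22.4 ± 1.11%. Nuclear-encoded subunits of the respiratory complexes, 73 genes, made up 10.7 ± 1.84%, glycolysis 4.90 ± 0.64% and ribosomal proteins, for comparison, 9.86 ± 1.69%. The glycolysis and energy shares hold only the GAPDH gene on chromosome 8, with a mean of 3663 FPKM. All 8 GAPDH loci summed to 20698 FPKM, so both shares are too low if those reads belong to GAPDH. The genes of the mitochondrial genome are not analysed here and are not in the energy share. The contractile share leaves out MYH7, TNNI2, TNNC2 and the troponin T row of unresolved name, itself 1.48% of the summed FPKM. How close the shares would be with these genes was not tested.

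Cytochrome c oxidase (complex IV) had the highest median of the energy lists, 2777 ± 872 FPKM over 14 subunits. COX6A2, the heart and muscle form of 1 subunit, was at 3367 ± 600 FPKM against 70.0 ± 20.1 for its ubiquitous partner COX6A1. For another subunit the ubiquitous form COX4I1 was at 3782 ± 1099 against 13.8 ± 2.32 for COX4I2, the lung form. The median was 1246 ± 331 FPKM for complex III, 1207 ± 339 for complex V, 490 ± 137 for complex I and 354 ± 123 for complex II. NDUFA4 was the highest of the subunits listed under complex I (2974, 1507 and 2979 FPKM), and NDUFA13 the lowest (1.81 ± 0.523). ATP5ME, subunit e of the ATP synthase, was at 13.5 ± 4.01 FPKM under its own name, but an unnamed locus described as the same subunit was at 3750 ± 1585 FPKM, so a low value of a single locus need not be that of the gene.

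Muscle isoforms also led glycolysis, glycogen use and the phosphocreatine shuttle. In glycolysis the median was 690 ± 59.4 FPKM, and the lowest member was hexokinase 2 (HK2), which traps glucose in the cell, at 2.18, 6.85 and 2.97 FPKM. PYGM, the muscle phosphorylase that releases glucose from glycogen, was at 2040 ± 197 FPKM, and the branching enzyme GBE1 at 9.88 ± 2.72. CKM, the cytosolic creatine kinase, was at 13320, 8862 and 8010 FPKM, and its mitochondrial partner CKMT2 at 2423, 1473 and 1357. Lactate dehydrogenase differed in makeup between libraries. LDHB, the oxidative form, was at 1892, 1310 and 742 FPKM and LDHA, the glycolytic form, at 805, 1053 and 1120. LDHB was the higher of the pair in CON 1 and CON 2, and LDHA was the higher in CON 3.

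**Figure D3:**
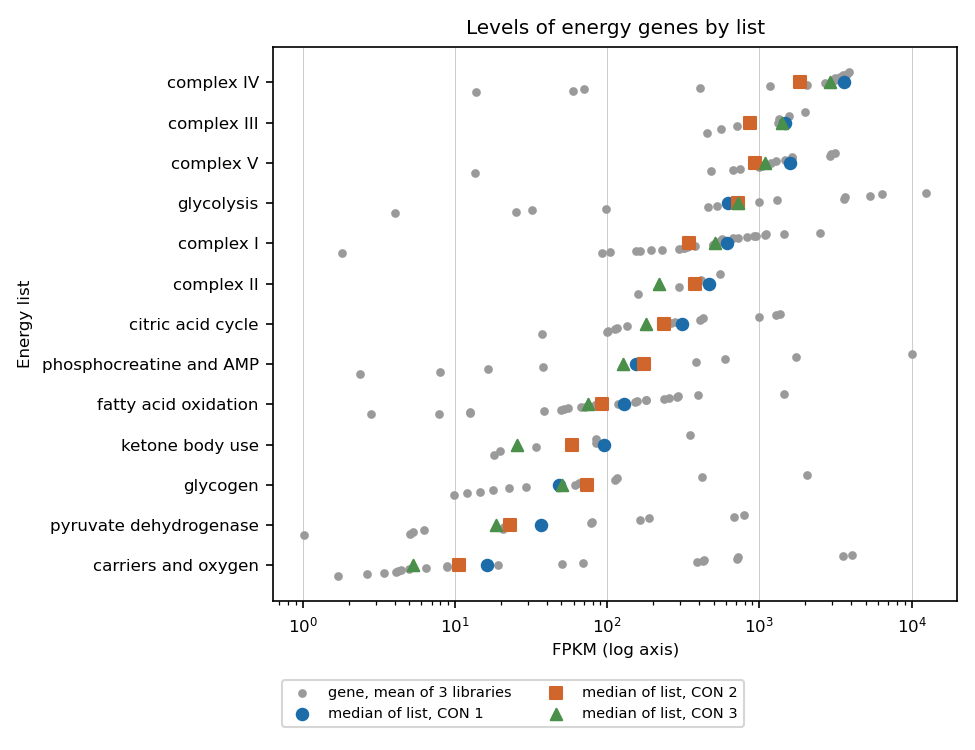
FPKM (log axis) of energy genes by list, ordered by median, with grey points for each detected gene (mean of 3 CON libraries) and a coloured symbol per library for the median of the list. Complex IV is at the top with a mean of medians of 2777 FPKM, and CON 1 lies to the right in most lists of oxidative metabolism.

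The fuel-oxidising lists set CON 1 apart. Fatty acid oxidation was highest in CON 1 in 21 of 24 genes, the citric acid cycle in 12 of 14, the pyruvate dehydrogenase list in 11 of 13 and ketone body use in 6 of 6. Over all 11167 genes with a mean of at least 1 FPKM, 21.3% were highest in CON 1, 55.9% in CON 2 and 22.8% in CON 3. The exceptions in fatty acid oxidation were the carriers FABP4 (highest in CON 3) and CD36 and the acyl-CoA synthetase ACSL1 (both highest in CON 2). FABP3, which carries fatty acids in muscle fibres, was at 2582, 884 and 857 FPKM, ACADM, the medium-chain dehydrogenase, at 117, 90.5 and 42.9, and CPT1B, the muscle gate for entry into mitochondria, at 142, 102 and 111. CON 1 was thus 3.01-fold over CON 3 in FABP3 and 1.39-fold over the lowest library, CON 2, in CPT1B.

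MB, myoglobin, the oxygen store of oxidative fibres, lies on chromosome 4 (85924464 to 85930956) and was at 5838 FPKM in CON 1, 3666 in CON 2 and 1102 in CON 3. CYCS, cytochrome c, followed the same order under its own name, at 753, 385 and 148 FPKM. A locus described as cytochrome c-like, chosen after its values were seen, was at 6.23, 10.04 and 171 FPKM, over CYCS in CON 3. Whether reads were split between CYCS and this locus was not tested, so the low CYCS value in CON 3 is uncertain. The order of MB was also that of SLC25A4, the muscle ADP/ATP carrier, at 5508, 3628 and 3039, and of citrate synthase (CS), at 291, 260 and 136. PDK4, a kinase that inhibits pyruvate dehydrogenase in fasting, was at 36.9, 14.1 and 11.7 FPKM. Among the 21 carriers and regulators of this kind, ESRRG, a regulator of oxidative genes, was the only member with no count in the 3 libraries, and PPARGC1A, the coactivator of mitochondrial biogenesis, was at 6.43 ± 3.70 FPKM with its highest value in CON 2. Of the 20 carriers and regulators with a mean of at least 1 FPKM, 13 were highest in CON 1, 5 in CON 2 and 2 in CON 3. The share of all genes highest in CON 1 was 21.3%. MB, SLC25A4, CS and PDK4 were highest in the same library as 8 of the 10 slow isoforms described above.

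Succinate dehydrogenase (complex II) contained the energy gene with the largest range. SDHD, a membrane anchor of the complex, lies on chromosome 1 (104272502 to 104288714) and was at 269, 195 and 10.3 FPKM, so that CON 1 was 26.0-fold over CON 3. Its partners SDHB (751, 528 and 376), SDHC (419, 246 and 221) and SDHA (508, 509 and 219 FPKM) were also lowest in CON 3, by 1.89-fold to 2.32-fold between their extremes.

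The differences between the libraries went with transcript length and with level. The deviation of a library, its log2(FPKM + 1) minus the mean of the 3 libraries, had a median over all genes of -0.14 in CON 1, 0.19 in CON 2 and -0.05 in CON 3. For the 355 genes with transcripts under 500 bases the medians were 0.18, -0.28 and 0.15, and for the 1477 genes of 5000 to 10000 bases -0.27, 0.30 and -0.02. CON 2 was thus relatively high in long and low in short transcripts, and CON 1 the reverse. Deviations were therefore also taken relative to the median of genes of like length in the same library. On that scale 34.4% of the genes were highest in CON 1, 31.6% in CON 2 and 33.9% in CON 3. By level, the median deviation of the 4782 genes with a mean of 1 to 5 FPKM was -0.22 in CON 1, 0.26 in CON 2 and -0.04 in CON 3, and that of the 133 genes with a mean over 1000 FPKM was 0.30, -0.39 and 0.13. Relative to genes of like level, taken in 6 classes of mean FPKM and added after the data were seen, 34.1% of all genes were highest in CON 1, 31.9% in CON 2 and 34% in CON 3. Short transcripts and abundant transcripts were thus both relatively high in CON 1, and how far the one trend accounts for the other was not tested.

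**Figure D4:**
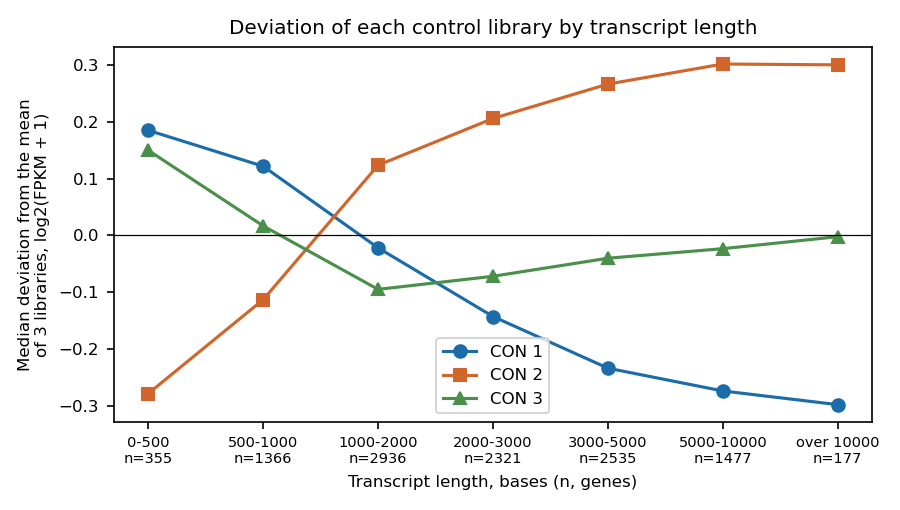
Median deviation of each CON library from the mean of 3 libraries, in log2(FPKM + 1), for genes grouped by transcript length in bases. CON 2 rises from -0.28 in the shortest class to about 0.30 in the longest classes, CON 1 falls from 0.18 to -0.30, and CON 3 lies between 0.15 and -0.10 in every class.

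The fuel-oxidising lists were mostly highest in CON 1 relative to genes of like length too. Slow isoforms were then highest in CON 1 in 9 of 10 genes, fatty acid oxidation in 22 of 24, the citric acid cycle in 13 of 14 and the pyruvate dehydrogenase list in 12 of 13, and the median deviation of the fatty acid list was 0.59 in CON 1, -0.29 in CON 2 and -0.39 in CON 3. Relative to genes of like level, CON 1 was the highest in 20 of 24 genes of fatty acid oxidation, 11 of 13 of the pyruvate dehydrogenase list and 6 of 6 of ketone body use, but in 7 of 14 of the citric acid cycle and 6 of 10 slow isoforms. Complex I was highest in CON 1 in 24 of 33 genes by FPKM and in 20 of 33 relative to like length, complex II in 3 and 4 of 4, complex III in 6 and 6 of 7, complex IV in 9 and 8 of 14, and complex V in 13 and 12 of 15. Relative to like level the counts were 17 of 33, 3 of 4, 4 of 7, 6 of 14 and 10 of 15. Ribosomal protein genes, with a median length near that of complex I, were highest in CON 1 in 46 of 68 by FPKM and in 33 of 68 relative to like length, and in CON 2 in 1 and 2 of 68. Relative to like level 21 of 68 were highest in CON 1, near the 34.1% of all genes. Low values of ribosomal protein and complex I genes in CON 2 thus went together, and the part of transcript length and level in them was not tested.

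**Figure D5:**
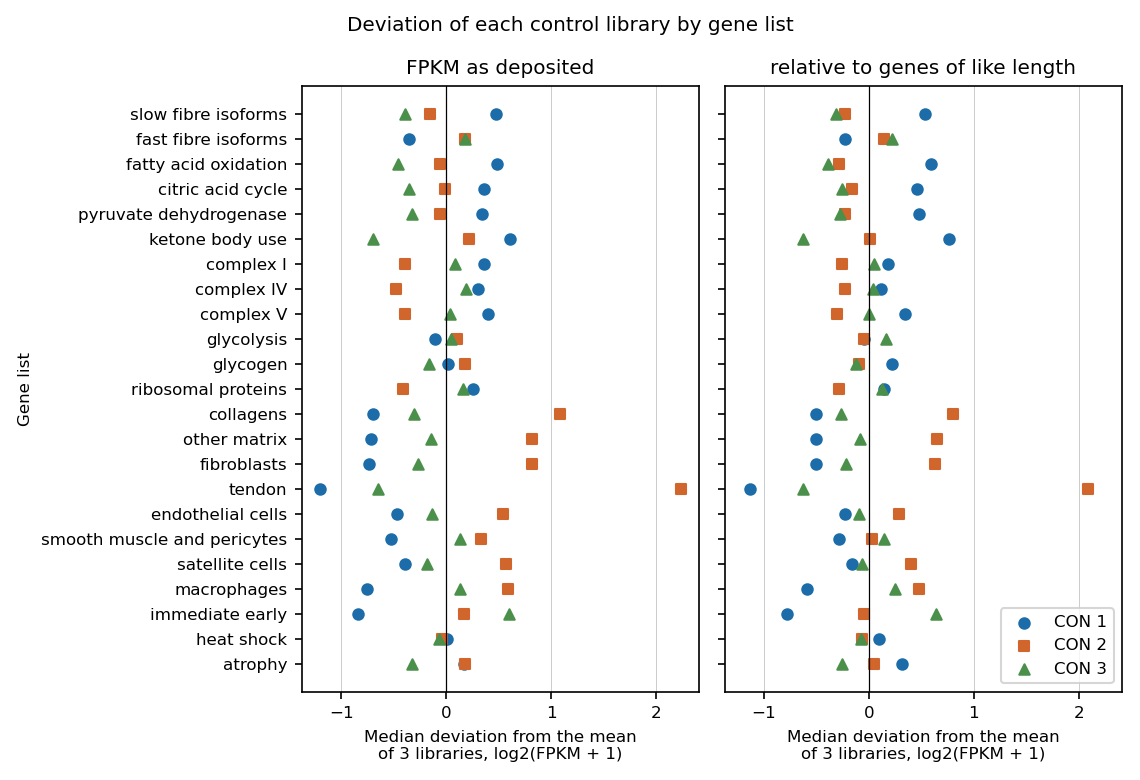
Median deviation of each CON library from the mean of 3 libraries, in log2(FPKM + 1), over the members of 23 gene lists with a mean of at least 1 FPKM, on the left from FPKM and on the right relative to genes of like length. CON 1 stands to the right in the slow and fuel-oxidising lists, and CON 2 in the matrix, fibroblast and tendon lists, where it reaches 2.24 on the left and 2.09 on the right for tendon.

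Extracellular matrix was a small part of the transcriptome and differed widely between libraries. The 42 matrix genes took 0.144% of the summed FPKM in CON 1, 0.579% in CON 2 and 0.193% in CON 3, a mean of 0.306 ± 0.238% that fell to 0.169% without CON 2. SPARC, a collagen-binding glycoprotein, was the highest at 390, 1017 and 379 FPKM. COL3A1, the fibrillar collagen of soft connective tissue, was at 114, 510 and 175 FPKM, and COL1A1, the main collagen of tendon and bone (chromosome 19, 37474894 to 37490691), at 16.5, 161 and 40.6. CON 2 was the highest library in all 14 collagen genes and all 27 other matrix genes with a mean of at least 1 FPKM. Relative to genes of like length, and likewise of like level, it was the highest in 14 and 26 of these. Of all genes 55.9% were highest in CON 2 by FPKM and 31.6% relative to like length.

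Fibroblast and tendon markers followed the matrix genes, with which they share members. Counted once each, the collagen, other matrix, fibroblast and tendon lists held 48 genes with a mean of at least 1 FPKM, of which 47 were highest in CON 2 by FPKM and 46 relative to genes of like length. THY1 was the exception by FPKM, at 13.5, 35.3 and 40.2. In 45 of the 48 the libraries differed by more than 2-fold, against 40% of all genes. Tendon genes were high in CON 2. FMOD, fibromodulin, which shapes collagen fibrils, was at 0.0895, 30.6 and 3.60 FPKM, and THBS4, a matrix protein of tendon and muscle junctions, at 0.946, 18.5 and 1.45. TNMD, tenomodulin, a marker of mature tendon cells, had 272 counts in CON 2 (10.8 FPKM) and no count in CON 1 or CON 3. KERA, keratocan, was at 0.485, 26.1 and 0.911 FPKM and SFRP2, a secreted regulator of Wnt signals, at 0.928, 15.9 and 1.31. The amount of tendon or fascia in the samples was not tested.

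Endothelial markers were present at a moderate level. PECAM1, which joins endothelial cells, was at 19.2, 51.7 and 27.2 FPKM, CDH5, the endothelial cadherin, at 15.6, 44.9 and 16.7, and KDR, the main receptor for VEGF, at 3.06, 8.09 and 3.80. All 11 endothelial genes matched were highest in CON 2, against 55.9% of all genes, and 10 of 11 relative to genes of like length, against 31.6%. Their summed level was 169, 442 and 219 TPM (FPKM rescaled to the same total in each library). CCL21, the chemokine of lymphatic endothelium, was at 6.53, 153 and 46.7 FPKM, and LYVE1, another lymphatic marker, at 2.27 ± 1.45.

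Smooth muscle actin behaved otherwise. ACTA2 was at 34.0, 71.4 and 171 FPKM, TAGLN, transgelin, at 42.3, 78.8 and 108, and MYH11, the smooth muscle heavy chain, at 5.04, 14.5 and 19.1. CON 3 was the highest for these contractile genes of vessel walls and CON 1 the lowest. RGS5 and PDGFRB, markers of pericytes, were highest in CON 2 at 33.7 and 15.3 FPKM. DES, desmin, which muscle fibres also express, was at 2101, 2206 and 933 FPKM and is left out of the list's sum, which was then 177, 413 and 501 TPM.

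Immune cells left few transcripts. Macrophage genes were led by AIF1 (3.58, 14.7 and 14.9 FPKM) and C1QC (2.93, 9.73 and 5.97), and the macrophage list summed to 14.9, 58.1 and 39.2 TPM, with MARCO and ADGRE1 at 0 in all libraries. T and NK cell genes summed to 2.84, 17.6 and 14.4 TPM and neutrophil genes to 4.47, 8.24 and 26.3. CON 1 was the lowest library for each of these lists. A locus described as the immunoglobulin gamma constant region, chosen after its values were seen, was at 4.86, 164 and 138 FPKM, and JCHAIN, the joining chain of secreted antibody, at 11.6, 29.1 and 34.4. PAX5, a transcription factor of B cells, had no count in the 3 libraries. Of the inflammatory list, IL6 and IL1B had no count, and NFKBIA and STAT3 led with 33.8 ± 8.67 and 17.2 ± 4.67 FPKM. DEFB1, a beta-defensin, was at 11.9, 148 and 398 FPKM.

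Blood was present in each sample. HBB, beta-globin, was at 676, 852 and 437 FPKM and ALAS2, the erythroid enzyme of haem synthesis, at 6.19, 5.09 and 1.32. Adipocyte genes included FABP4 (186, 317 and 367 FPKM), which endothelial cells also express, and ADIPOQ, adiponectin, at 18.3, 24.8 and 12.5. No gene of the mesothelial list reached a mean of 1 FPKM, and KRT18 and KRT19 had no count. HP, haptoglobin, of the liver list, was at 2.69, 28.5 and 21.5 FPKM, while ALB, FGA, FGB, TTR and AHSG of the same list had none.

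Nerve markers were even between libraries in their sum. Schwann cell genes summed to 67.4, 68.2 and 65.6 TPM, with S100B at 22.9, 17.3 and 16.6 FPKM. Single members were no more even than other genes: of the 5 with a mean of at least 1 FPKM, 2 differed by more than 2-fold, like the 40% of all genes. Neuromuscular junction genes formed a separate list. In it RAPSN, which clusters acetylcholine receptors, was at 47.8 ± 11.8 FPKM and COLQ, which anchors acetylcholinesterase, at 16.1 ± 3.00. The adult receptor subunit CHRNE was at 2.90 ± 0.38. CHRNG, the fetal subunit, was at 0.692, 1.88 and 2.19 FPKM and MUSK, the receptor kinase of the junction, was the lowest at 0.782 ± 0.415.

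Of 8 satellite cell and myogenic factors matched, 5 had a mean of at least 1 FPKM. CON 2 was the highest in 5 of 5, against 55.9% of all genes, also relative to genes of like length (31.6% of all genes), but in 4 of 5 after scaling by TMM factors or relative to like level. MYOG, myogenin, which drives differentiation, was at 9.43, 21.6 and 13.1 FPKM, MYOD1 at 2.23, 4.72 and 1.94, and PAX7, which defines satellite cells, at 0.255, 1.49 and 1.02. CON 2 was also the library with the highest MYH3 and MYH8. Of the 7 developmental and cardiac isoforms with a mean of at least 1 FPKM, however, it was the highest in only 3, against 55.9% of all genes.

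Early response transcripts were high in CON 3. FOS, a transcription factor induced within minutes of a stimulus (chromosome 20, 29860066 to 29863336), was at 4.34, 13.8 and 63.9 FPKM, ATF3, a stress-induced factor, at 1.99, 3.90 and 21.3, and DUSP1, which switches off MAP kinases, at 19.3, 45.2 and 72.8. CON 3 was the highest library in 8 of 11 immediate early genes, by FPKM and relative to like length, against 22.8% and 33.9% of all genes, and the exceptions JUN, IER2 and ZFP36 were highest in CON 2. CON 1 had the lowest median deviation, -0.84, against 0.17 in CON 2 and 0.60 in CON 3. The 3 loci described as the inducible heat shock protein HSP70 1B summed to 93.6, 345 and 1499 FPKM. The heat shock list, which does not hold these loci, did not follow them in its median deviation, which was 0.01 in CON 1, -0.04 in CON 2 and -0.07 in CON 3. CON 3 was the highest in 5 of its 17 genes, against 22.8% of all genes, and 3 of the 17 differed by more than 2-fold, against 40% of all genes. Single members were highest in CON 3, among them HSPA8 at 494, 416 and 611 FPKM and HSPB1 at 1042, 924 and 1538.

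The same library had the most ribosomal RNA. RN18S took 0.313% of the counts in CON 1, 0.175% in CON 2 and 1.97% in CON 3, and a locus described as an uncharacterised protein and chosen after its values were seen was at 126, 59.8 and 1433 FPKM. Libraries were made from poly(A) RNA, which should hold little of the 18S RNA, and the part of RNA quality or selection in the pattern of CON 3 was not tested.

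Genes of muscle wasting and of glucocorticoid response were expressed in these unventilated muscles. FBXO40 was at 60.1 ± 7.08 FPKM, TRIM63, the ligase MuRF1, at 37.3, 54.9 and 25.3, and FBXO32, the ligase MAFbx, at 21.4, 25.6 and 3.31, with CON 3 7.74-fold under CON 2. BNIP3, a mitophagy receptor, was the highest of the atrophy list at 343 ± 104 FPKM. TSC22D3, a glucocorticoid target, was even at 78.7, 80.9 and 79.5 FPKM, whereas FKBP5, another such target, was at 14.8, 14.1 and 31.2. Antioxidant genes were led by GPX1 at 536 ± 128 FPKM, with HMOX1, the inducible haem oxygenase, at 3.68 ± 2.31.

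Across all 11167 genes the median coefficient of variation between the 3 libraries was 30.2%, and the highest library exceeded the lowest by more than 2-fold in 40% of them. The SD over genes of the log2(FPKM + 1) difference was 0.693 between CON 1 and CON 2, 0.688 between CON 1 and CON 3 and 0.669 between CON 2 and CON 3. No library stood apart from the other pair by this measure. From the counts, the common biological coefficient of variation (the spread beyond counting error, by edgeR) was 0.432 in CON over 12649 genes. It was 0.572 over 12477 genes in the ventilated libraries without PEEP and 0.650 over 13338 genes in those with PEEP, and these values were not tested against each other.

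Single genes far from the rest were of several kinds. Among the 4267 genes with a mean of at least 10 FPKM, 10 of the 15 with the largest range were loci without a gene name, and 5 of these were described as copies of RPL17 or RPL21, proteins of the large ribosomal subunit. The copies of RPL17 differed in which library was high. The gene itself was at 594, 83.7 and 863 FPKM, a copy on chromosome 2 at 417, 449 and 17.5, and the 9 loci together at 1537, 1315 and 952. The sum varied far less than its members. RPL23A, at 2935, 274 and 2601 FPKM, was another ribosomal protein gene that was low in CON 2.

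Named genes that set 1 library apart included splicing and transport factors. MBNL1, a splicing factor of muscle maturation, was at 3.06, 30.7 and 30.7 FPKM, and KPNA6, an importin, at 0.135, 8.67 and 7.81, both low in CON 1. RAB9A, a regulator of endosome traffic, was at 3.97, 71.2 and 0.732 FPKM, and MBNL2 at 1.58, 23.2 and 1.33, both high in CON 2. CISH, a suppressor of cytokine signals, was at 24.8, 33.6 and 0.453 FPKM, PTGR2 at 60.2, 64.6 and 2.52, and OVCA2 at 14.4, 21.2 and 0, all low in CON 3. At the other end, RAN, the nuclear transport GTPase, was at 70.9, 71.7 and 71.7 FPKM, APEH at 24.6, 25.1 and 24.8, and ASB16, a muscle-enriched ubiquitin ligase adaptor, at 105, 103 and 104. These differed by less than 2% between libraries.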

How the data were processed

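Diaphragm RNA was measured in 9 rabbit libraries by poly(A) RNA sequencing. Per the labels, samples with an RNA integrity number above 7.0 went through 2 rounds of poly(A) selection and 8 PCR cycles with strand marking by dUTP, and per the study's methods paired reads of 150 bases were sequenced. The submitters' processing notes name cutadapt 1.9, HISAT2 2.0.4, StringTie 1.3.4d and the genome build OryCun 2.0. The authors deposited whole-number counts per gene and FPKM per gene, 1 column each per library, and the program behind the counts is not given in the sources used here. The deposited FPKM columns hold a small placeholder where the count is 0, and it was set to 0. Counts are not corrected for copies that share reads, so near-identical loci are uncertain.

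Only the 3 CON libraries were described, with the mean and SD (n = 3) of FPKM per gene. Library totals ranged from 21646702 to 31791693 counts, and limits for a count of 0 cover counting error only. RefSeq (assembly mOryCun1.1) gave symbols for 23368 of 29076 rows and was used for names only. Gene lists (48 lists, 677 entries, 602 matched) and isoform pairs were written by hand, and the members and lists were chosen with earlier results of these data known. Genes named are the 25 with the highest mean, the members of the fibre lists, the highest 3 and the lowest member of other lists with up to 4 more by range, the 15 with the largest and 10 with the smallest range among genes with a mean of at least 10 FPKM, and the 8 highest and 8 lowest per library among those with a mean of at least 5 FPKM, without loci that have no name. Beyond this rule, partners of a named isoform, well-known members of the energy, cell type and state lists (such as CS, CPT1B and PAX7) and markers at 0 are named, and these were chosen after their values were seen. A pseudocount of 1 was used on the log2 scale. Deviations relative to like length subtract the library's median in 20 bins of transcript length, and those relative to like level its median in 6 classes of mean FPKM with bounds at 1, 5, 20, 50, 200 and 1000. Summed levels of lists are in TPM, computed from FPKM by rescaling each library to the same total. The biological coefficient of variation came from edgeR 4.0.16 on the counts (TMM scaling, 1 group at a time, genes with a mean of at least 0.5 FPKM), checked on simulated counts, with DESeq2 1.42.0 size factors as an alternative. Other alternatives were filters, the pseudocount, shares of counts, means or medians over members and leaving out each library. Some members of the lists are not reported here.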

Additional observations from a re-analysis of the deposited data

How the results depend on the processing

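No paired analysis was possible because no comparison between groups was made within the CON libraries. The share of summed FPKM in the 25 highest genes ranged from 31.6% to 32.2% with 1 library left out, and 22 to 25 of the 25 genes were shared with the main list. With shares of counts 19 of 25 were shared. Shares without the genes of the mitochondrial genome could not be computed, since the rows used held none of them. The median slow share of the 7 pairs was 26.0% and ranged from 19.6% to 29.9% with 1 library left out, and the slow share of myosin binding protein C and calsequestrin was 92.8% and 12.7% with counts in place of FPKM. The median FPKM of the 188 energy genes, 290, ranged from 245 to 318 with 1 library left out and was 827 as a mean over members. Cell type markers summed to 7285 TPM, from 5541 to 8359 with 1 library left out, to 3884 without members shared with muscle or energy lists (DES, FABP4, LPL, MYH6 and MYL4), and had a median of 2.40 per gene. The biological coefficient of variation of CON, 0.432, was 0.465 with library size only, 0.586 with every gene that had 1 count in any library (17477 genes), 0.364 at a mean of at least 5 FPKM, and 0.403 to 0.443 with 1 library left out. The count of genes detected, 11167, was 6385 at a mean of at least 5 FPKM and ranged from 10735 to 11423 with 1 library left out. Of the 18 counts of list members highest in a library, none moved by over 1.5 times after TMM scaling or relative to like length, and 2 did relative to like level: the citric acid cycle in CON 1 (7 in place of 12) and ribosomal proteins in CON 1 (21 in place of 46). Complex IV in CON 1 (6 in place of 9) was not called moved. The share of all genes highest in CON 1 was 21.3% by FPKM but 34.1% relative to like level, and in CON 2 55.9% and 31.9%. An unmoved count therefore does not show that its excess over all genes was kept. In all, 37 of 171 values of single lists and pairs moved under other settings, most of them sums replaced by medians or medians by means. Levels and shares were called moved beyond the SD between libraries, and counts of list members beyond 1.5 times. The cause was not tested. Depth limits genes near 1 FPKM, and 3 libraries limit the precision of each SD.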
